A study of Mus musculus with 40 samples.

Results

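The genes described here are 10 transcripts of brown fat and of adipocytes in general, measured in mouse kidney: Ucp1, Elovl3, Dio2, Cidea, Cox8b, Adipoq, Plin1, Lipe, Lep and Cfd. All 10 were matched by Ensembl gene identifier among the 55359 genes counted. Ucp1 and Elovl3 were chosen by their measured CPM, which was high at the top doses of 10 and 30 µg/kg, so their values there are a description and carry no test. The other 8 were listed as genes of the same tissues.

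The libraries came from the right kidneys of 40 male C57BL/6 mice. TCDD (2,3,7,8-tetrachlorodibenzo-p-dioxin), a long-lived ligand of the aryl hydrocarbon receptor, was given by mouth in sesame oil every 4 days over 28 days, from day 30 to day 58 of age. The 8 groups of 5 mice received vehicle (sesame oil alone) or TCDD at 0.03, 0.1, 0.3, 1, 3, 10 or 30 µg/kg. Each library holds the RNA of about 100 mg of 1 kidney, and no library was made from the fat around the kidney.

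Brown fat burns fatty acids to make heat. Ucp1, in the inner mitochondrial membrane, lets protons return without making ATP, and cold and adrenergic signals raise it through cyclic AMP. White fat stores triglyceride in droplets coated by Plin1, from which lipases such as Lipe release fatty acids. It secretes the hormones Adipoq and Lep and the complement protease Cfd. In mice a pad of fat with brown adipocytes lies against the kidney at the hilum and around the adrenal gland. In RNA from whole tissue, fewer cells of a type and less RNA per cell cannot be told apart.

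The 3 promoters below are of members that differ in how they moved: Ucp1, which was highest at 10 and 30 µg/kg, Dio2, which rose, and Lep, which fell. They are the 250 bases before the annotated start in the RefSeq table of GRCm38.p6, 5′ to 3′ on the gene's strand. Capitals mark matches, on either strand, to 3 searched motifs: GCGTG, the core bound by the aryl hydrocarbon receptor, AGGTCA, a core bound by nuclear receptors, and TGACG, the core of the cyclic AMP response element.
Ucp1, chr8:83290098-83290347, plus strand: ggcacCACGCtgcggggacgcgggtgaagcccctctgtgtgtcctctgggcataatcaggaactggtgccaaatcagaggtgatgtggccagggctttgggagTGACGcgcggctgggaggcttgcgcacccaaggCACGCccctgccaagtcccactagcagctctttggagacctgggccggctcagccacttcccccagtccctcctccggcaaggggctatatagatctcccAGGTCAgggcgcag
Dio2, chr12:90739039-90739288, minus strand: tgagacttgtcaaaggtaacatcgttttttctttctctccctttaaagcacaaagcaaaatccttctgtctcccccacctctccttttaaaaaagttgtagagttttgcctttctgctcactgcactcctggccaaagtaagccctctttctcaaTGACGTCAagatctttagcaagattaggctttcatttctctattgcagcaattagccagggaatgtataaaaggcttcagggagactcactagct
Lep, chr6:29059971-29060220, plus strand: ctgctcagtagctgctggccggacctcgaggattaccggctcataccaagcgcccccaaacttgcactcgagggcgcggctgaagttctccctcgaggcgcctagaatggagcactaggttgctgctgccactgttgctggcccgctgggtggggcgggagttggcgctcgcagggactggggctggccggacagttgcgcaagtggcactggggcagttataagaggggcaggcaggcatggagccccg
The Ucp1 window held GCGTG on the opposite strand at 245 and 114 bases before the start, TGACG at 147 and AGGTCA at 14. In the Dio2 window, TGACG lay at 95 bases before the start, with an overlapping match on the opposite strand at 92. The Lep window held none of the 3 motifs. Of all 32851 promoter windows of this length, 28.2% held GCGTG, 14% AGGTCA and 17.8% TGACG, so these are common words. A match describes the letters only. Promoters of 8 of the 10 genes were searched, without Cidea and Elovl3. Among the other 5 genes searched only Lipe had a match, GCGTG at 75 bases before 1 of its 2 starts.

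The depth per library ran from 15278423 to 25575317 reads counted to genes. Levels are CPM, counts scaled to a common library total, with TMM factors that hold most genes level between libraries. All 7 kidney markers were detected in every library, from Nphs1, of podocytes, at 13.9 to 34.6 CPM to Kap, the androgen-regulated protein of the proximal tubule, at 1040 to 22500 CPM. Their summed level had a lowest, median and highest value of 24200, 28000 and 34400 CPM in vehicle. It was 22500, 26700 and 28100 CPM at 10 µg/kg and 12400, 13700 and 26000 CPM at 30 µg/kg. At 30 µg/kg 2 of 7 fell, against 7.55% of all genes: Kap (log2 fold change -1.23 ± 0.35, edgeR adjusted p = 0.0116) and Slc34a1, the phosphate transporter of the proximal tubule (-0.55 ± 0.09, 3.23e-05). At 10 µg/kg Slc34a1 (-0.32, edgeR adjusted p = 0.0338) and Slc12a3, of the distal convoluted tubule (-0.30, 0.037), fell and Nphs1 rose (0.58, 0.0486), against 0.997% of all genes lower and 3.82% higher. The part of these shifts in the levels of the fat genes was not tested. Adrenal cortex genes stood apart in 3 libraries, at a summed 809 CPM in replicate 1 of the 0.03 µg/kg group, 843 CPM in replicate 4 of the 1 µg/kg group and 44.7 CPM in replicate 2 of the 3 µg/kg group, against 3.20 to 9.09 CPM in the other 37. None of these 3 belongs to the vehicle, 10 or 30 µg/kg groups. Without the first 2 of them, a check added after seeing the data, the counts of members called below did not change at any dose.

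The markers of brown fat were unevenly present. Ucp1, Cidea and Cox8b were each above 3 counts in 39 of 40 libraries. In vehicle kidneys Elovl3 was at the floor and Dio2 averaged 0.775 CPM. Prdm16, a transcription factor of brown adipocytes, was at 20.0 ± 4.14 CPM and the cytochrome oxidase subunit Cox7a1 at 11.0 ± 1.58 CPM (SD, n = 5). At 3 µg/kg, where a kidney held 0 counts of Ucp1, the lowest values of Prdm16 and Cox7a1 were 20.6 and 8.02 CPM. Their levels thus did not follow that of Ucp1 there. Otop1, a proton channel of brown fat, was at 1.65 ± 1.06 CPM, and Ebf2, another brown fat transcription factor, at 0.554 ± 0.344 CPM. Lhx8, a marker of the classical interscapular depot, was at 0 in every group, and Zic1, another, averaged 0.0101 CPM in vehicle and 0 in every TCDD group. On the white fat side, Adipoq, Plin1, Lipe and Cfd were above 3 counts in all 40 libraries.

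Ucp1 (ENSMUSG00000031710), the uncoupler itself, was at 11.9, 16.0, 9.93, 9.53 and 4.19 CPM in the 5 vehicle kidneys. Kidneys at 10 µg/kg were at 54.7, 109, 10.3, 115 and 50.5 CPM. Those at 30 µg/kg were at 54.3, 114, 67.5, 120 and 110 CPM. All 5 kidneys of the 30 µg/kg group and all but 1 of the 10 µg/kg group thus lay above every vehicle kidney, and the exception, replicate 3 at 10 µg/kg, lay inside the vehicle range. The group means were 10.3 ± 4.26 CPM in vehicle, 68.0 ± 43.9 at 10 µg/kg and 93.3 ± 30.1 at 30 µg/kg (SD, n = 5 each), or 6.59-fold and 9.05-fold over vehicle. From vehicle to 3 µg/kg the 30 libraries spanned 0 to 44.7 CPM with a median of 10.4 CPM. The 44.7 CPM was in replicate 4 of the 1 µg/kg group, 1 of the libraries rich in adrenal transcripts, and the 0 was in replicate 3 of the 3 µg/kg group. The step thus fell between 3 µg/kg, with a mean of 11.1 ± 9.70 CPM (n = 5), and 10 µg/kg, and the means below 10 µg/kg, from 9.04 to 19.1 CPM, followed no order of dose.

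Elovl3 (ENSMUSG00000038754), an elongase of very long chain fatty acids that brown fat raises in the cold, was close to undetected in vehicle kidneys, with 3, 3, 0, 2 and 0 counts. At 10 µg/kg its level was 0.145, 3.6, 0.0567, 3.84 and 1.77 CPM. The highest dose gave 1.31, 1.58, 1.29, 5.78 and 5.50 CPM. Every kidney at 30 µg/kg exceeded the highest vehicle value of 0.173 CPM, but replicates 1 and 3 at 10 µg/kg did not. Because vehicle is at the floor (3 counts or fewer in each library), the ratio is a lower bound: the mean was at least 11.5-fold higher at 10 µg/kg (1.88 ± 1.81 CPM), and at 30 µg/kg (3.09 ± 2.33 CPM, SD, n = 5) it was at least 18.8-fold higher. Even there the largest count was 144 reads. The gene reached the minimum level for testing through the high groups alone: 8 of 10 libraries at 10 and 30 µg/kg reached 0.566 CPM, against 2 of the 30 others. Those 2 were replicate 1 at 0.03 µg/kg (0.728 CPM) and replicate 4 at 1 µg/kg (0.787 CPM), the same 2 kidneys in which adrenal transcripts were highest.

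**Figure D1:**
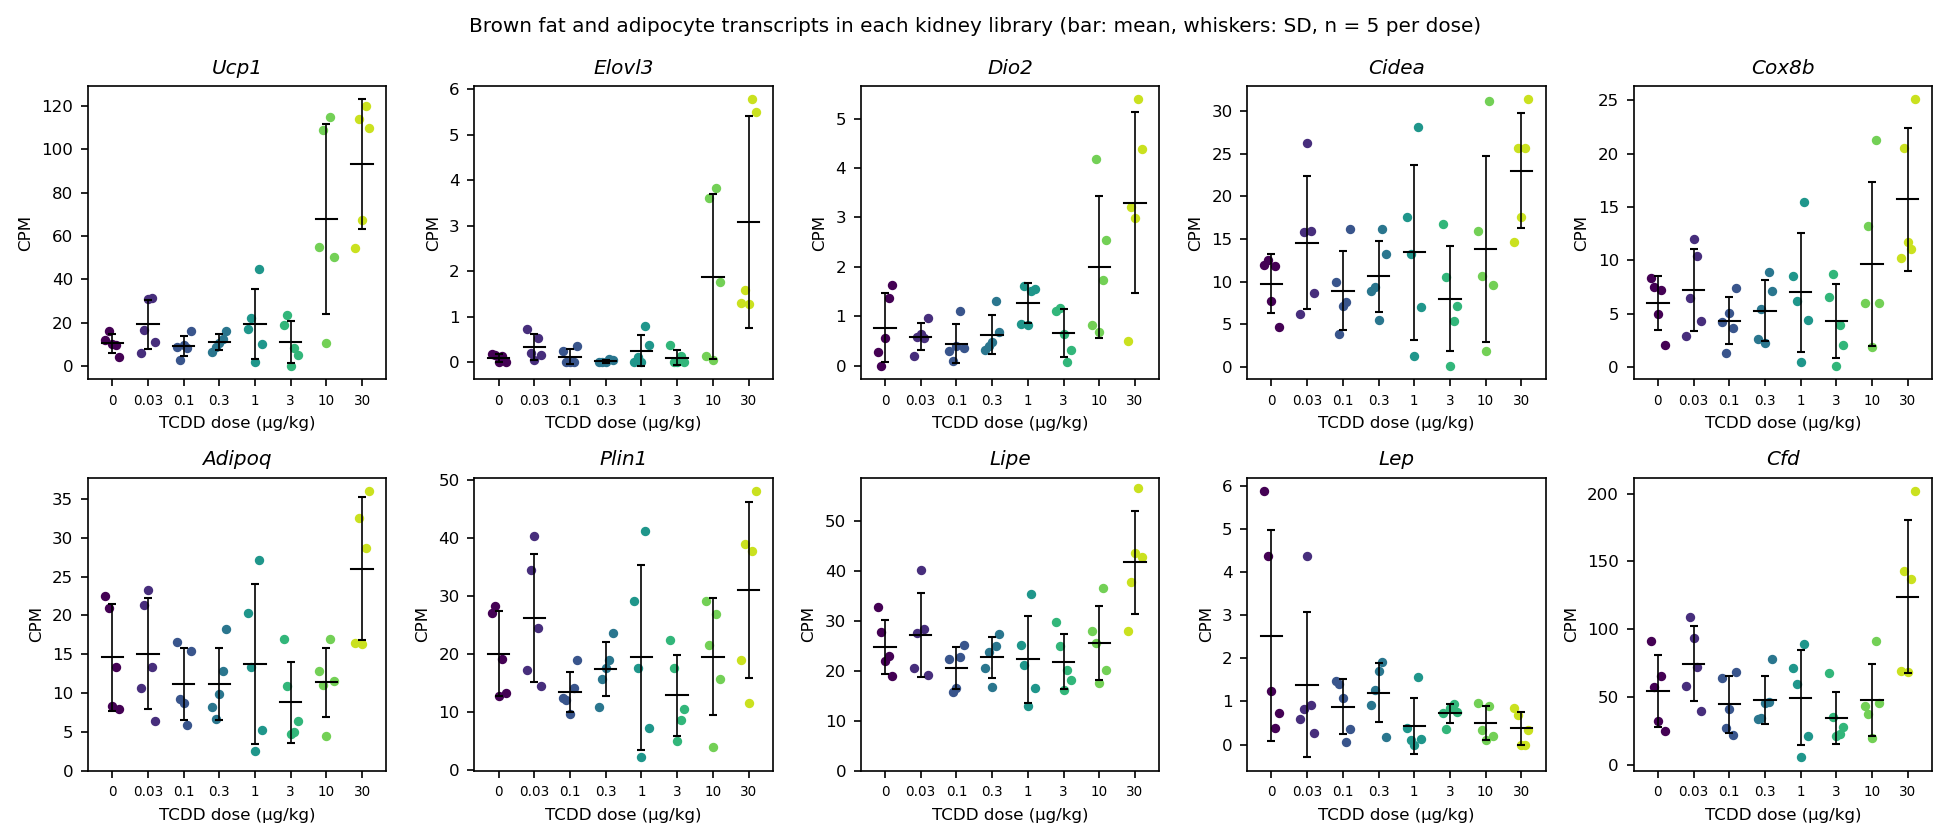
Level of each of the 10 transcripts in CPM (vertical axis, linear, own scale per gene) in every library against TCDD dose in µg/kg. Points are single kidneys, bars are means and whiskers SD over 5 libraries. Ucp1 and Elovl3 step up between 3 and 10 µg/kg, Lep is highest in a vehicle kidney, and most of the others are highest at 30 µg/kg.

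No member was called at the lower doses. Calls here are edgeR quasi-likelihood tests against vehicle with a Benjamini-Hochberg adjusted p under 0.05 over all 17345 genes tested. At 0.03, 0.1 and 0.3 µg/kg 0 of 10 members passed, with 0 of 10 at an unadjusted p under 0.05, and 0%, 0% and 0.00577% of all genes passed. Elovl3 is 1 of these 10, but near its floor it could hardly be called below 10 µg/kg, so its misses carry no information. At 1 and 3 µg/kg 0 of 10 passed, against 0.513% of all genes at 1 µg/kg (0.507% higher and 0.00577% lower) and 1.09% at 3 µg/kg (1.03% higher and 0.0634% lower), with 1 member, Lep, at an unadjusted p under 0.05 in each. DESeq2 also called 0 members at each of the 5 doses. Of the 8 members not chosen for their rise, 0 passed at 10 µg/kg by either tool, against 4.82% of all genes (3.82% higher and 0.997% lower), with 2 at an unadjusted p under 0.05 and a lowest adjusted p of 0.141 in edgeR. At 30 µg/kg 3 of 8 passed, with Dio2 and Lipe higher and Lep lower, against 15.9% of all genes (8.39% higher and 7.55% lower).

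Dio2 (ENSMUSG00000007682), the deiodinase that turns thyroxine into active thyroid hormone inside brown adipocytes, rose at 30 µg/kg. In vehicle kidneys it was at 0.288, 0, 0.562, 1.38 and 1.64 CPM. The 10 µg/kg kidneys were at 0.820, 4.18, 0.680, 1.73 and 2.55 CPM, and at 30 µg/kg at 0.511, 3.22, 2.98, 5.39 and 4.39 CPM. Replicate 1 at 30 µg/kg lay within the vehicle range, and the other 4 lay above all vehicle kidneys. The mean rose from 0.775 ± 0.708 to 3.30 ± 1.83 CPM (SD, n = 5), a log2 fold change of 2.11 ± 0.63 (SE, edgeR adjusted p = 0.0157). Its difference of 1.38 ± 0.63 (log2) at 10 µg/kg did not pass (edgeR adjusted p = 0.254). These are small counts, at most 115 reads in a library. The call at 30 µg/kg was lost without replicate 4 of that group (edgeR adjusted p = 0.0563), with reads counted on 1 strand only (0.0637) and when only these 2 groups were fitted (0.135). Dio3, the deiodinase that inactivates thyroid hormone, was too low to be tested, averaging 0.219 ± 0.117 CPM without TCDD and 0.795 ± 0.481 CPM with 30 µg/kg (n = 5), with 5 of 5 kidneys above all of vehicle. Dio1, the deiodinase that kidney tubules express, fell from 23.9 ± 5.23 to 16.8 ± 2.93 CPM (n = 5, log2 fold change -0.51 ± 0.17, edgeR adjusted p = 0.0275).

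Cidea (ENSMUSG00000024526), a lipid droplet protein typical of brown adipocytes, was at 12.0, 12.6, 7.77, 11.8 and 4.65 CPM in vehicle. At 30 µg/kg it was at 14.7, 25.7, 17.6, 25.7 and 31.4 CPM, all 5 above all 5 vehicle kidneys. Its mean was 9.76 ± 3.43 CPM without TCDD and 23.0 ± 6.77 CPM with 30 µg/kg (n = 5), yet the log2 fold change of 1.24 ± 0.61 did not pass (edgeR adjusted p = 0.182). The fit shares 1 estimate of spread over 8 groups, and kidneys at other doses ranged as low as 0.130 CPM. With vehicle and 30 µg/kg alone in the fit, Cidea passed (log2 fold change 1.24 ± 0.28, edgeR adjusted p = 0.0246).

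Cox8b (ENSMUSG00000025488), a cytochrome c oxidase subunit of brown fat and muscle, followed Cidea. It was at 8.35, 7.55, 5.01, 7.23 and 2.10 CPM in vehicle and at 10.2, 20.5, 11.7, 11.1 and 25.1 CPM at 30 µg/kg. The 2 groups again did not overlap, and the log2 fold change of 1.38 ± 0.63 did not pass (edgeR adjusted p = 0.146). Both genes overlapped vehicle broadly at 10 µg/kg, with Cidea at 1.81 to 31.2 CPM and Cox8b at 1.87 to 21.3 CPM. Their log2 fold changes there were 0.52 ± 0.61 and 0.69 ± 0.63, with edgeR adjusted p-values of 0.775 and 0.682. The sign for Cidea at 10 µg/kg rests on 1 kidney, replicate 4, without which the log2 fold change was -0.03.

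Ucp1 therefore stood higher relative to Cidea at the top doses, in every library of both groups. The ratio of Ucp1 to Cidea CPM within a library, which is not corrected for gene length and serves only to set libraries side by side, was 0.990, 1.27, 1.28, 0.810 and 0.902 in vehicle. It was 3.45, 10.3, 5.69, 3.68 and 5.25 at 10 µg/kg and 3.71, 4.43, 3.85, 4.68 and 3.52 at 30 µg/kg. Over the 29 libraries from vehicle to 3 µg/kg it ran from 0.693 to 2.20, so the 2 ranges did not touch. Replicate 3 at 10 µg/kg, the kidney with Ucp1 at 10.3 CPM, also had the lowest Cidea of its group (1.81 CPM), and its ratio of 5.69 was among the high ones. The ratio of Ucp1 to Cox8b ran from 1.32 to 4.79 in the 29 libraries and from 4.40 to 10.9 in the 10. Cox8b to Cidea overlapped between the same sets, at 0.288 to 0.824 and 0.380 to 1.24. Since Ucp1 was chosen for its rise, these ratios are descriptive.

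**Figure D2:**
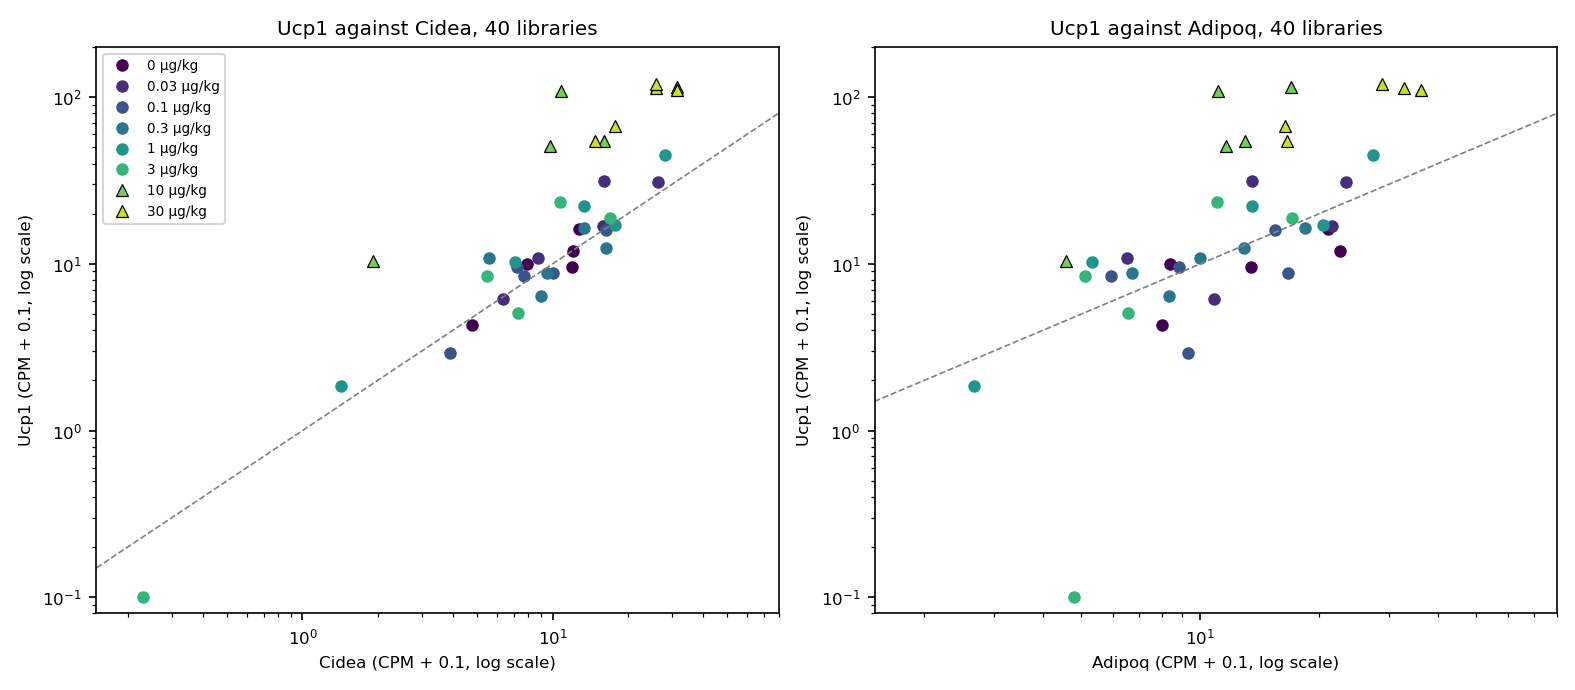
Ucp1 in CPM + 0.1 (vertical, log scale) against Cidea (left) and Adipoq (right) in CPM + 0.1 (horizontal, log scale), 1 point per kidney, coloured by dose. The dashed line is equality. The 10 triangles of 10 and 30 µg/kg lie above the line in both panels, with Ucp1 to Cidea at 3.45 to 10.3, against 0.693 to 2.20 in the lower dose libraries with a ratio.

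Adipoq (ENSMUSG00000022878), the adipocyte hormone adiponectin, was at 22.5, 21.0, 8.29, 13.3 and 7.88 CPM in vehicle and at 16.5, 32.6, 16.3, 28.7 and 36.1 CPM at 30 µg/kg. Kidneys overlapped, with 3 of 5 above all vehicle kidneys, and the log2 fold change of 0.84 ± 0.47 did not pass (edgeR adjusted p = 0.249). The 10 µg/kg kidneys were at 4.48 to 16.9 CPM, none above the highest vehicle kidney, and the log2 difference was -0.35 ± 0.48 (edgeR adjusted p = 0.814). The mean of this general adipocyte marker at 10 µg/kg was 0.780 of vehicle. Ucp1 was chosen for its rise at that dose, so the 2 genes were not compared by a test.

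Plin1 (ENSMUSG00000030546), the droplet coat of adipocytes, was at 12.7 to 28.2 CPM in vehicle, 3.97 to 29.2 at 10 µg/kg and 11.5 to 48.2 at 30 µg/kg. Its log2 fold change was 0.64 ± 0.50 at 30 µg/kg (edgeR adjusted p = 0.442) and -0.03 ± 0.50 at 10 µg/kg (0.989). Cfd (ENSMUSG00000061780), complement factor D or adipsin, was at 91.6, 57.3, 32.4, 65.5 and 25.5 CPM in vehicle and at 69.4, 143, 68.8, 137 and 202 CPM at 30 µg/kg. Here 3 of 5 exceeded all vehicle kidneys, and the log2 fold change of 1.19 ± 0.49 did not pass (edgeR adjusted p = 0.0999). Cfd was at 20.1 to 91.4 CPM at 10 µg/kg, and its log2 fold change of -0.18 ± 0.49 had an edgeR adjusted p of 0.921.

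Lipe (ENSMUSG00000003123), hormone-sensitive lipase, rose at 30 µg/kg. It was at 32.8, 27.7, 21.9, 22.9 and 19.0 CPM in vehicle and at 27.9, 37.9, 43.6, 56.6 and 42.8 CPM at 30 µg/kg, with 4 of 5 above all vehicle kidneys. The mean rose from 24.9 ± 5.44 to 41.8 ± 10.4 CPM (n = 5), or by 0.75 ± 0.24 in log2 (edgeR adjusted p = 0.0280), against 0.04 ± 0.24 at 10 µg/kg (0.966). Lipe shares 918 exonic bases, 15.6% of its length, with a gene on the opposite strand, 4732471J01Rik, and reads were counted without strand, so its counts are uncertain. On 1 strand alone its mean was 37.5 CPM in the vehicle group and 63.8 CPM in the 30 µg/kg group. The call is fragile: leaving out vehicle replicate 3, 4 or 5 gave edgeR adjusted p-values of 0.0729, 0.0625 and 0.0761, and leaving out replicate 3, 4 or 5 at 30 µg/kg gave 0.0506, 0.114 and 0.0516.

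Lep (ENSMUSG00000059201), the hormone leptin, fell at 30 µg/kg, where the log2 fold changes of the other 7 members tested were all above 0. It was at 5.88, 4.36, 1.25, 0.394 and 0.737 CPM in vehicle, at 0.965, 0.336, 0.113, 0.902 and 0.196 CPM at 10 µg/kg and at 0.852, 0.679, 0, 0 and 0.344 CPM at 30 µg/kg. In these 3 groups the 2 highest values were both vehicle kidneys, 3 of 5 kidneys at 30 µg/kg lay below all of vehicle, and the groups overlapped. The mean fell from 2.52 ± 2.45 to 0.375 ± 0.388 CPM (n = 5), with a log2 difference of -2.71 ± 0.90 (edgeR adjusted p = 0.0334). Differences of -2.29 ± 0.86 at 10 µg/kg and -2.50 ± 0.89 at 1 µg/kg, where 4 of 5 kidneys lay below all of vehicle, did not pass (edgeR adjusted p = 0.141 and 0.381). With at most 110 reads in any library, single kidneys decide the call at 30 µg/kg. Leaving out vehicle replicate 1 or 2 gave edgeR adjusted p-values of 0.118 and 0.0807, and leaving out replicate 3, 4 or 5 at 30 µg/kg gave 0.0765, 0.0932 and 0.0727. With 30 µg/kg and vehicle alone it was 0.121.

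Within a library, Lep to Adipoq was 0.262, 0.207, 0.151, 0.0297 and 0.0935 in vehicle. It was 0.0749, 0.0304, 0.0253, 0.0532 and 0.0170 at 10 µg/kg and 0.0515, 0.0208, 0, 0 and 0.00953 at 30 µg/kg. The values overlap through vehicle replicate 4 alone at these doses. Low ratios were not particular to them: at 1 µg/kg the ratio was 0 to 0.0579, while at 3 µg/kg it was 0.0323 to 0.187. Cfd to Adipoq held between 2.29 and 6.23 in all 40 libraries, and Plin1 to Adipoq between 0.708 and 2.41.

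**Figure D3:**
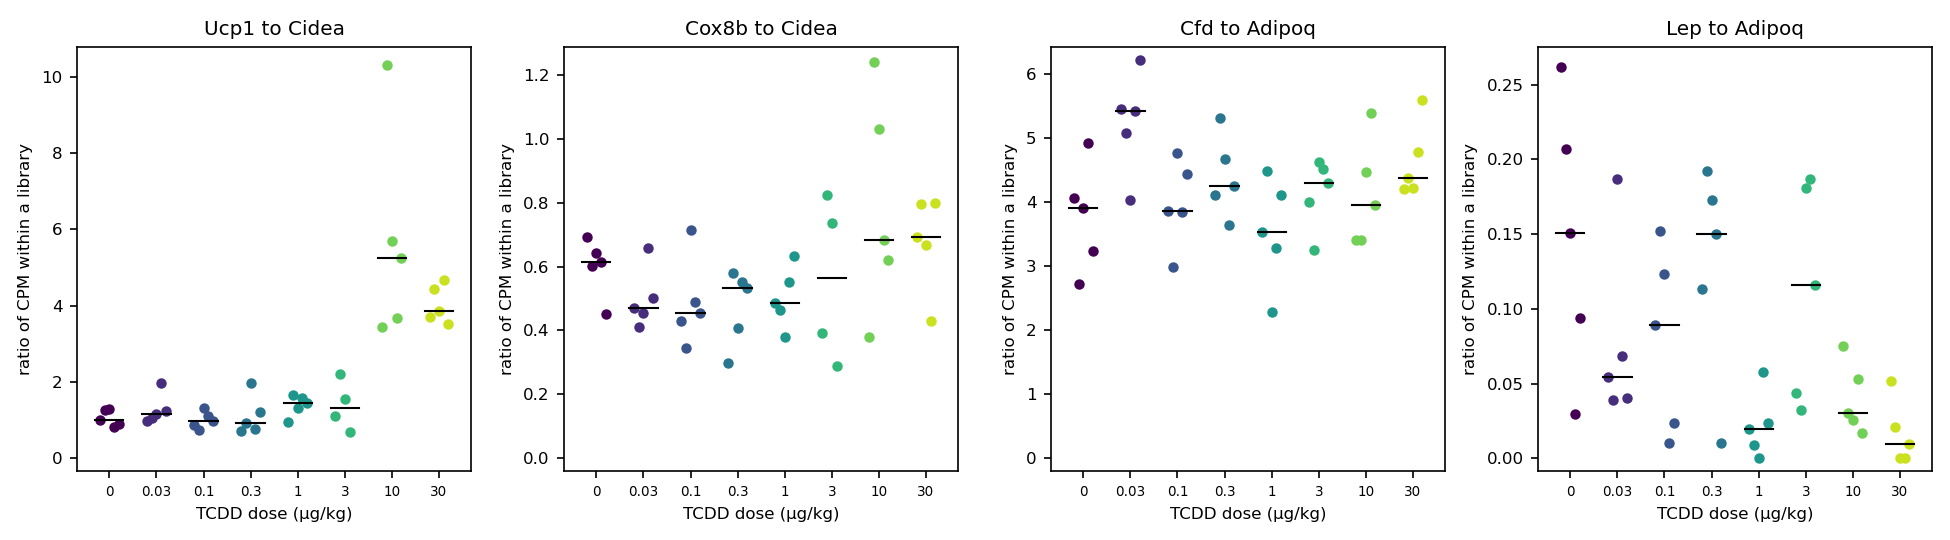
Ratios of CPM within a library (vertical, linear) for Ucp1 to Cidea, Cox8b to Cidea, Cfd to Adipoq and Lep to Adipoq against dose in µg/kg. Points are kidneys and bars group medians, and replicate 3 at 3 µg/kg has no ratio to Cidea. Ucp1 to Cidea has medians of 5.25 and 3.85 at 10 and 30 µg/kg against 0.990 in vehicle, while Cfd to Adipoq stays between 2.29 and 6.23.

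Over the whole dose range, a linear trend per step of dose rank (0 for vehicle to 7 for 30 µg/kg) was tested for the 8 members not chosen for their rise. Of these 2 passed, Dio2 rising by 0.333 ± 0.069 and Lep falling by 0.349 ± 0.087 on the log2 scale per step (edgeR adjusted p = 0.000409 and 0.00303). Since 19.8% of all genes passed this test (11% rising and 8.84% falling), 2 of 8 is close to the background. Cox8b (0.160 ± 0.066, edgeR adjusted p = 0.0855) and Lipe (0.067 ± 0.029, 0.105) came closest among the rest. Cox8b passed without replicate 3 at 3 µg/kg (0.0463) and Lipe without replicate 3 at 0.03 µg/kg (0.0431). Without the 30 µg/kg group the slope of Dio2 was 0.238 (edgeR adjusted p = 0.0684), and the slopes of Adipoq, Plin1, Lipe and Cfd turned negative.

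Per kilobase of exon, Cfd was the most abundant of the 10 in vehicle kidneys, at 59.1 ± 28.9 CPM per kb (n = 5). Cox8b (16.8 ± 7.04), Adipoq (10.6 ± 4.99), Cidea (8.75 ± 3.08) and Ucp1 (6.30 ± 2.61) followed by mean. Plin1 and Lipe (4.31 ± 1.58 and 4.23 ± 0.924) had close means, and Lep (0.752 ± 0.730), Dio2 (0.133 ± 0.122) and Elovl3 (0.0462 ± 0.0428) were lowest. At 30 µg/kg Ucp1 stood second by mean at 57.0 ± 18.4 CPM per kb, behind Cfd at 135 ± 61.1 and above Cox8b at 43.6 ± 18.5. The SDs are over kidneys, between which most of these genes vary together. They do not settle the order of genes within a kidney, which was not tested. Lep was last at 0.112 ± 0.116 CPM per kb.

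The amount of fat transcript in a library varied widely from kidney to kidney in every group. The summed CPM of Adipoq, Plin1, Cidec and Retn, transcripts typical of adipocytes, had a lowest, median and highest value of 30.3, 45 and 83.4 in vehicle. It was 14.1, 52.4 and 73.4 at 10 µg/kg and 51.7, 111 and 150 at 30 µg/kg. The level at 10 µg/kg thus lay within or below the vehicle range, and at 30 µg/kg most kidneys lay above it. With the log2 of this sum as a term in the fit, the log2 fold change of Ucp1 was 2.69 ± 0.43 at 10 µg/kg (2.72 ± 0.66 without the term) and 2.31 ± 0.44 at 30 µg/kg (3.17 ± 0.67 without). For Dio2 at 30 µg/kg it was 1.84 ± 0.69 and for Lep -3.20 ± 0.79.

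Like Ucp1 at 30 µg/kg, other members drew nearer to 0 with that term. At 30 µg/kg Cidea went from 1.24 to 0.38 ± 0.38, Cox8b from 1.38 to 0.57 ± 0.44, Cfd from 1.19 to 0.40 ± 0.19 and Lipe from 0.75 to 0.45 ± 0.14. With Cidea itself as the term, a choice made after seeing the data, Ucp1 was at 2.41 ± 0.30 and 1.96 ± 0.32 at 10 and 30 µg/kg and Cox8b at 0.18 ± 0.26 at 30 µg/kg. These are values with no test, and Elovl3 had no such value because vehicle is at its floor. How much adipocyte tissue came with each kidney was not measured, and its part in the result at 30 µg/kg was not tested.

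**Figure D4:**
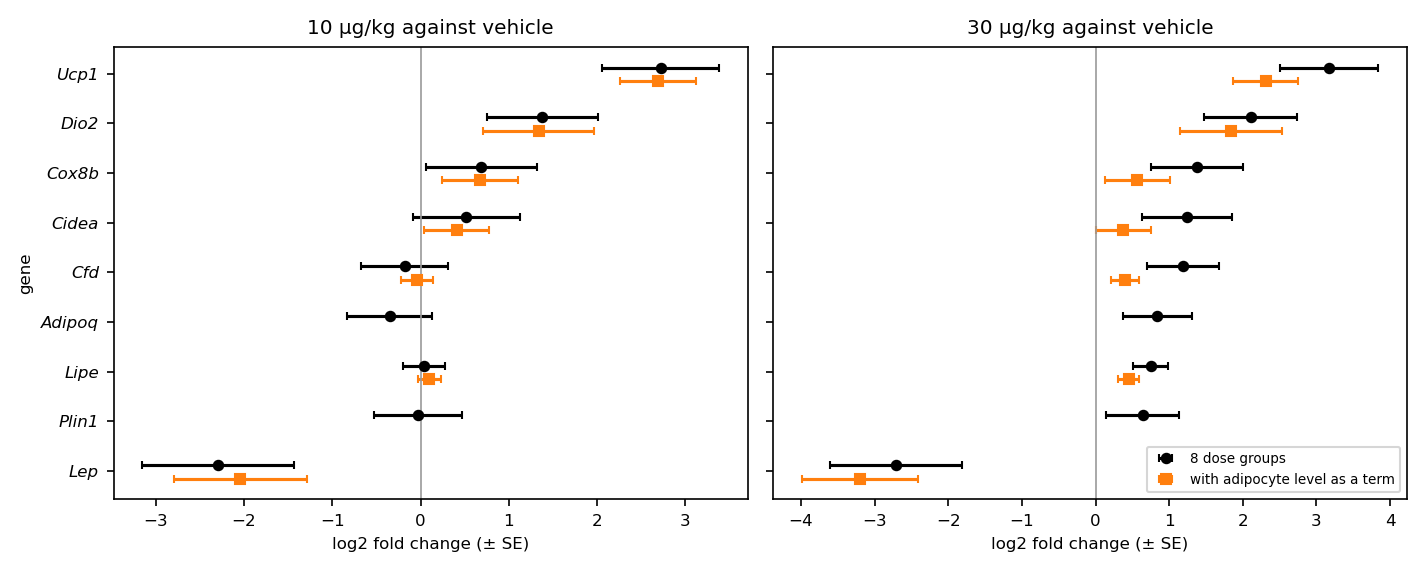
Log2 fold change against vehicle (horizontal, ± SE) at 10 µg/kg (left) and 30 µg/kg (right) for 9 of the genes. Black circles come from the fit of 8 dose groups, and orange squares from the same fit with the log2 summed CPM of Adipoq, Plin1, Cidec and Retn as a term. Elovl3 is left out because vehicle is at its floor, and Adipoq and Plin1 have no square because they are in the sum. With the term Lep is at -2.04 and -3.20, and Ucp1 is at 2.69 and 2.31, against 2.72 and 3.17 without it. Cidea at 30 µg/kg moves from 1.24 to 0.38.

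Kidneys with more of one fat transcript had more of most others within a dose group. After the dose means of log2 CPM were removed, all 15 pairs among Cidea, Cox8b, Adipoq, Plin1, Lipe and Cfd correlated over the 40 libraries, with Pearson r from 0.73 to 0.95 and Spearman rho from 0.73 to 0.95. The highest adjusted permutation p among them was 2.1e-05 for either measure, over 45 pairs, the smallest these 100000 permutations within doses could give after adjustment. Leaving out the 2 libraries farthest from the median left r at 0.69 or more. Ucp1, given as a description because its values at the top doses chose it, had r from 0.64 to 0.95 and rho from 0.73 to 0.90 with these 6 genes, highest with Cidea at 0.95 and Cox8b at 0.94. Without the 2 farthest libraries its lowest r was 0.68. Libraries share the scaling of depth, and the counts of Lipe are uncertain because it overlaps a gene on the opposite strand.

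The 3 sparse members were looser. Elovl3 had r from 0.44 to 0.52 and rho from 0.35 to 0.52 with the 6 genes, as a description, and its r fell to as little as 0.31 without the 2 farthest libraries. Lep had r from 0.29 to 0.49 with them, where 3 of 6 pairs passed, and Dio2 from 0.11 to 0.23, where 0 of 6 passed. The 1 negative pair to pass was Dio2 with Lep, at r -0.42 and rho -0.43 (adjusted permutation p = 0.025 and 0.024). Its r was -0.32 without the 2 farthest libraries. At so few reads a weak correlation shows little either way.

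**Figure D5:**
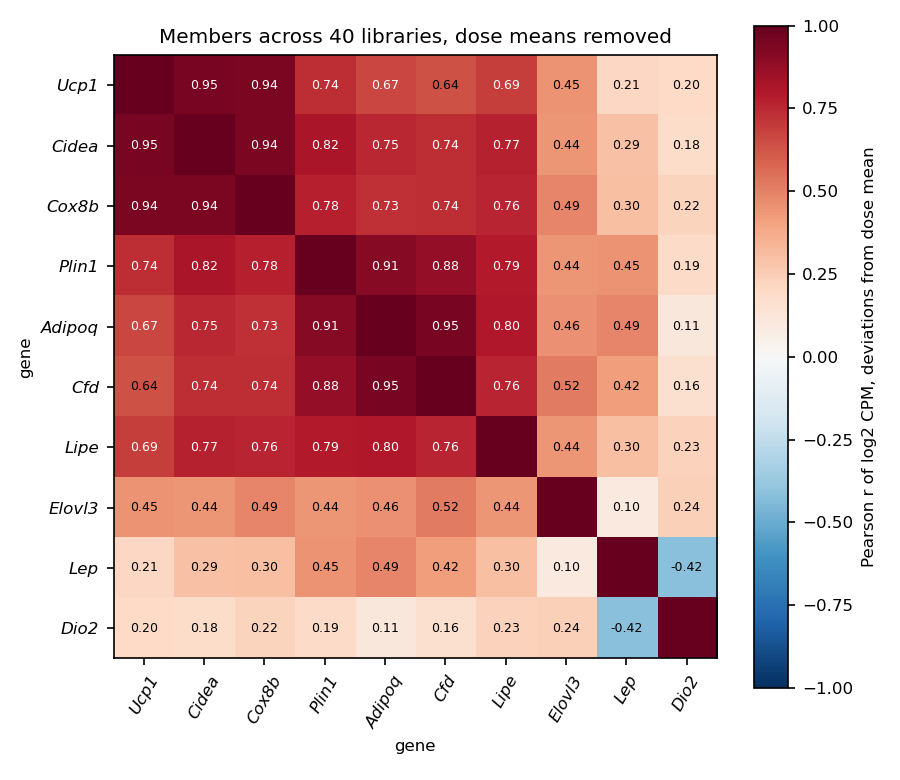
Pearson r (colour and printed value) between each pair of the 10 genes over 40 libraries, after the mean log2 CPM of each dose group was removed. Ucp1, Cidea, Cox8b, Plin1, Adipoq, Cfd and Lipe form a block with r of 0.64 or more, and Elovl3, Lep and Dio2 lie outside it.

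Among all genes tested, those whose log2 CPM ranked the 40 libraries much like Ucp1 included Otop1 (Spearman rho 0.860), Fabp4, the fatty acid carrier of adipocytes (0.832), Clstn3, calsyntenin 3 (0.830), and Pparg, the adipocyte nuclear receptor (0.828). Otop1 averaged 1.65 CPM in vehicle and 4.73 at 30 µg/kg. Nearest to Elovl3 were Stim1, a calcium sensor (0.725), Tnxb (0.724), the caveolar protein Cavin1 (0.716), transferrin, Trf (0.704), and Dhrs7 (0.703). Nearest to Adipoq were Fabp4 (0.945), the droplet protein Cidec (0.917), Slc36a2 (0.908), Aoc3 (0.897) and Thrsp (0.893). These likenesses include the dose differences and are descriptions over 40 libraries. Fabp4 is on the lists for both Ucp1 and Adipoq, while the 5 genes nearest to Elovl3 are on neither.

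Of 16 genes counted in a brown fat list of 20, without Ucp1 and Elovl3, 0 passed at 10 µg/kg, where 4.82% of all genes did, and at 30 µg/kg 2 were higher and 1 lower, against 15.9% of all genes, so the share at 30 µg/kg was close to the background. The median log2 fold change was 0.27, or 0.19 over the 13 that are not members, against 0.01 over all genes. Beside Dio2, the higher gene was Slc25a20, the mitochondrial carnitine carrier (0.73 ± 0.14, edgeR adjusted p = 0.000232), and the lower gene was Gk, glycerol kinase (-0.40 ± 0.10, 0.00225). Both were abundant in vehicle kidneys, at 47.6 and 641 CPM. Otop1 was at 1.51 ± 0.62 (edgeR adjusted p = 0.0963) and Kcnk3, a potassium channel of brown adipocytes, at 1.53 ± 0.69 (0.142). Kcnk3 was above all of vehicle in 5 of 5 kidneys at 30 µg/kg. Its log2 fold change was no smaller at 0.03 µg/kg (1.64 ± 0.69, edgeR adjusted p = 0.855) and at 1 µg/kg (1.69 ± 0.69, 0.567). Those groups hold the libraries richest in adrenal transcripts. Their highest kidneys reached 35.0 and 41.9 CPM of Kcnk3, while their medians were 6.71 and 5.7 CPM, with 3 of 5 kidneys in each above all of vehicle. The 30 µg/kg group had a median of 8.82 CPM. The part of the adrenal-rich kidneys in the lower dose values was not tested. Those values therefore cannot decide whether the rise of Kcnk3 was particular to the top dose. At 30 µg/kg Adrb3, the adrenergic receptor of adipocytes, was at -0.14 ± 0.58 (edgeR adjusted p = 0.913), and Ppargc1a, the coactivator of mitochondrial genes, at 0.25 ± 0.13 (0.213). Prdm16 was at 0.19 ± 0.16 (0.477), Cox7a1 at 0.09 ± 0.20 (0.835) and Ebf2 at 1.14 ± 0.77 (0.359).

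In the adipocyte list of 20 genes, 0 passed at 10 µg/kg, against 4.82% of all genes, and 4 rose and 1 fell at 30 µg/kg, against 8.39% and 7.55% of all genes. The median log2 fold change was 0.58 at 30 µg/kg. Over the 15 genes that are not members, 3 rose and 0 fell, with a median of 0.21. The sum over the list was 1310 to 1870 CPM in vehicle and 1500 to 2060 CPM at 30 µg/kg, much of it from Lpl, the lipase of capillary walls (789 ± 231 and 547 ± 150 CPM, n = 5). Beside Lipe, the higher genes were Pnpla2, the first lipase of triglyceride breakdown (0.97 ± 0.18, edgeR adjusted p = 0.000271), Pparg (0.91 ± 0.29, 0.0248) and Acvr1c, an activin receptor of adipocytes (1.47 ± 0.51, 0.0444). The lower gene was Lep. Retn, the hormone resistin, was at 7.43 ± 5.21 and 7.41 ± 4.25 CPM, a log2 difference of 0.01 ± 0.57 (edgeR adjusted p = 0.994). The count of 5 fell to 1 without replicate 4 or 5 at 30 µg/kg and to 3 without replicate 3 there or without vehicle replicate 2, 3, 4 or 5.

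The families of Ucp1 and Elovl3 showed other changes. Ucp2, an uncoupling protein family member found in many tissues, rose at both doses, with means of 107 ± 7.56 CPM for vehicle and 199 ± 60.8 CPM for 30 µg/kg (n = 5, log2 fold change 0.90 ± 0.12, edgeR adjusted p = 5.65e-07, and 0.42 with 0.0231 at 10 µg/kg). It was the only 1 of 4 relatives of Ucp1 to pass, against 4.82% of all genes at 10 µg/kg and 15.9% at 30 µg/kg. Ucp3, of muscle and brown fat, was at 1.35 ± 0.60 (0.131). Of 6 relatives of Elovl3, Elovl6 (0.67 ± 0.18, edgeR adjusted p = 0.00845) and Elovl2 (0.48 ± 0.11, 0.00118) rose at 30 µg/kg, Elovl1 fell (-0.19 ± 0.06, 0.0250), and 0 passed at 10 µg/kg. Of all genes, 8.39% rose and 7.55% fell at 30 µg/kg and 4.82% passed at 10 µg/kg. With so few relatives these counts describe the named genes and not the families.

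Targets of the fatty acid receptors (PPARs), of which brown fat and kidney tubules share many, rose mainly at 30 µg/kg. Of 16 counted, 12 were higher at 30 µg/kg, against 8.39% of all genes, and 1 at 10 µg/kg, against 3.82%, with median log2 fold changes of 1.34 and 0.51. Among the largest were Cyp4a14 (5.6), Creb3l3 (4.51), Pdk4 (3.43), Angptl4 (2.68) and Cyp4a10 (1.90), which serve fatty acid oxidation and fuel choice. Their edgeR adjusted p-values ran from 1.06e-06 for Cyp4a14 to 0.000829 for Creb3l3. These 5 had log2 fold changes of 1.60, 0.79, 0.92, 1.01 and 0.58 at 10 µg/kg in the same order, and none passed. With vehicle and 30 µg/kg alone in the fit, 4 targets passed. The share of all genes passing in that fit was not counted.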

How the data were processed

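The 10 members and all gene lists were chosen with earlier results of these data known, so no list is independent evidence. The authors deposited raw read counts per gene for each of 40 libraries (5 per group), and the unstranded count column was used. The submitters' processing notes name FastQC 0.11.7, Trimmomatic 0.39, STAR 2.7.3a and DESeq2, and the builds GRCm39 and mm10 without saying which was counted on, so only the RefSeq promoters carry coordinates. The labels' protocols give an unstranded kit, and the 2 stranded columns held near equal counts (50.4 to 51% on the first). Identifiers were named with GENCODE M21 (52083 of 55359), from which exon lengths were also taken. Lines that name no gene (21.2 to 23.9% of a library's total) were left out.

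Tests used edgeR 4.0.16 (limma 3.58.1, R 4.3.3): filterByExpr by group (17345 genes left), TMM factors (0.966 to 1.09), a robust quasi-likelihood fit over all 40 libraries, Benjamini-Hochberg adjustment over all genes and a threshold of 0.05. SEs are fold changes over the root of F, and fold changes used a prior count of 0.125. For log2 CPM the prior count was 2. The floor was 3 counts per library, and a group with no library above it is at the floor. The fit was tested on simulated data. Intervals of this kind cover the spread between mice and not molecules, since reads carry no molecular identifiers. Each library is 1 kidney of 1 mouse, per the labels. Named genes were the 10 members, up to 6 genes of each list called at 10 or 30 µg/kg with the largest change at 30 µg/kg, and the 5 genes nearest in rank to Ucp1, Elovl3 and Adipoq. Some genes that the rule names are not reported here. Prdm16, Cox7a1, Dio3, Otop1, Ebf2, Lhx8, Zic1, Kcnk3, Adrb3, Ppargc1a, Lpl, Retn and Ucp3 were named after their values were seen. Alternatives were DESeq2 1.42.0, its size factors in edgeR, no low count filter, 1 strand, fewer groups, a term for 2 runs of title numbers, covariates and leaving out single libraries.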

Additional observations from a re-analysis of the deposited data

Results flagged for a closer look

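Each of the 10 genes was looked at in each of 8 groups, 80 sets of 5 kidneys in all, for a highest or lowest kidney far from the other 4. Chance alone sets apart about 1 in 20, and 3 of 80 were. Lep was at 4.37 CPM in replicate 3 of the 0.03 µg/kg group, with the next kidney at 0.917 CPM. That kidney also had the highest Cidea (26.3 CPM), Adipoq (23.3 CPM) and Plin1 (40.4 CPM) of its group. Lep was at 1.57 CPM in replicate 4 of the 1 µg/kg group, with the next at 0.393 CPM, in a kidney with adrenal transcripts at 843 CPM and the highest Ucp1 of its group (44.7 CPM). Cfd was at 78.1 CPM in replicate 5 of the 0.3 µg/kg group, with the next at 46.5 CPM, beside the highest Adipoq of its group (18.3 CPM).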

How the results depend on the processing

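No paired analysis was possible because the titles number each animal once, so the groups share no replicate number. The count of 3 members called at 30 µg/kg was 1 with no low count filter and 0 to 3 when single kidneys were left out, falling to 1 without replicate 3 or 5 and to 0 without replicate 4 of the 30 µg/kg group. The lost calls without the filter were Lipe (edgeR adjusted p = 0.0579) and Lep (0.0796). The 2 trends became 1 without the 30 µg/kg group, and 2 to 3 without single kidneys. Adipocyte genes called at 10 µg/kg went from 0 to 1 with DESeq2, with no filter and with the title number term, and ran from 0 to 1 without single kidneys. At 30 µg/kg their 5 became 1 with no filter and 3 with only 2 groups, and ran from 1 to 7 without single kidneys. With only 2 groups the 3 elongases became 1 and the 12 PPAR targets 4. The share of all genes passing was not counted for these alternatives. A loss of calls in these lists thus cannot be told from a general loss. The mean Lipe level on 1 strand was 37.5, 42.4 and 63.8 CPM in vehicle and at 10 and 30 µg/kg, against 24.9, 25.6 and 41.8 CPM. Slopes that turned without the 30 µg/kg group were those of Adipoq (-0.078), Plin1 (-0.058), Lipe (-0.014) and Cfd (-0.093). At 10 µg/kg Plin1 turned to 0.01 on 1 strand and Lipe to -0.01 with the Cidea term, and without single kidneys Cfd ran from -0.56 to 0.09, Cidea from -0.03 to 0.79, Lipe from -0.12 to 0.16 and Plin1 from -0.22 to 0.22. None of these 4 was called there. The lower bounds for Elovl3 ran from 8.48 to 14.2 at 10 µg/kg and from 14.7 to 21.6 at 30 µg/kg without single kidneys of the dose group. Elovl3, Dio2 and Lep are limited by depth, with at most 144, 115 and 110 reads in a library. The cause of these changes was not tested.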

Other observations

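Replicate 3 of the 3 µg/kg group held almost no Ucp1, Cidea or Cox8b. Ucp1 was at 0 counts, and Cidea and Cox8b were at 2 counts each (0.130 CPM), while Adipoq was at 4.69 CPM, Plin1 at 5.02 CPM, Cfd at 21.7 CPM and Lep at 0.848 CPM there. Adipoq, Plin1 and Cfd were the lowest of their group there, and Lep lay among the other 4 kidneys. Dio2, at 10 counts (0.652 CPM), was at the median of its group. Cidea to Adipoq was 0.0278 in this kidney, the lowest of all 40 libraries, against 0.405 to 1.84 in the 10 libraries at 10 and 30 µg/kg. Replicate 3 of the 1 µg/kg group was low in Ucp1 (1.75 CPM), Cidea (1.32 CPM), Adipoq (2.57 CPM) and Cfd (5.89 CPM).

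The 10 kidneys at 10 and 30 µg/kg differed widely in Elovl3 relative to Ucp1. The ratio of their CPM within a library ran from 0.00265 to 0.0498 there, with Elovl3 at 0.145 CPM in replicate 1 at 10 µg/kg beside Ucp1 at 54.7 CPM, and 1.31 CPM in the first replicate of the 30 µg/kg group beside Ucp1 at 54.3 CPM.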
